A study of Oncorhynchus mykiss with 24 samples.

Results

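Each member described here is a pair of gene copies, 1 from the mother's species and 1 from the father's, read side by side in the animal section of hybrid embryos at 3 days post fertilization (dpf). A pair was taken where 1 Oncorhynchus mykiss gene had exactly 1 Salvelinus fontinalis ortholog and the reverse, where both copies were listed in the count table, and where the copies together had 50 or more counts in the section A libraries of 3 dpf. Of the 6027 one-to-one ortholog pairs 3836 had both copies listed, and all 3836 reached 50 counts (lowest 66, median 773.5, highest 21418). The maternal copy alone was listed in 2074 further pairs, the paternal copy alone in 31, and neither in 86.

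Eggs of rainbow trout (O. mykiss) were fertilized with brook trout (S. fontinalis) sperm, and RNA was sequenced from an animal section (A) and a vegetal section (B) of each egg or embryo at 0 and 1 hours post fertilization (hpf), at 1 dpf (about 32 to 64 cells) and at 3 dpf (mid-blastula, about 1000 cells). All groups carry the same cross, and no purely paternal sample was among them. The 2 section A libraries of 3 dpf had 5923757 and 5011274 counts, of which 40.7% and 41.6% fell on the pairs. The comparison groups were section A at 1 dpf (3 libraries) and section B of the same 3 dpf embryos (2 libraries), and the other libraries, 18 in all, served as background. Replicate 3 of 3 dpf was not analysed here.

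A fish egg is loaded with RNA made by the mother's genome, and the embryo's own nuclei stay nearly silent through the first cleavages. Around the mid-blastula stage the embryo's genome is switched on and stored RNA begins to be destroyed, a handover known as the maternal-to-zygotic transition. Egg RNA comes from the mother alone, so in a species hybrid RNA of the father's copy is newly made, apart from any the sperm carried in. RNA of the mother's copy can be stored or new, and these cannot be told apart in the counts. The question the pairs address is how far the father's genome contributed to each transcript by 3 dpf.

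By 3 dpf the father's copies held 26.9% of the pairs' counts in the animal section, and almost none elsewhere. Summed over all pairs, the paternal share of counts was 27.4% in replicate 1 (95% exact binomial interval 27.3% to 27.4%) and 26.3% in replicate 2 (26.3% to 26.4%). Their mean was 26.9% with an SD of 0.735 (n = 2). In section A at 1 dpf it was 1.29% ± 0.0511 (SD, n = 3), and in section B of the same 3 dpf embryos 1.32% ± 0.0151 (SD, n = 2). Over all 18 background libraries it ran from 1.24% to 1.34%. The section A libraries of 3 dpf thus stood far above all other libraries, eggs included, in which the small share on paternal rows is the background of the counting. Intervals cover counting error only and leave out the spread between embryos. They treat every read as independent, although reads carried no molecular identifiers.

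The share differed widely between pairs. Its median was 26.5% in replicate 1 and 25.8% in replicate 2, with quartiles of 15.2% and 39.5% in replicate 1 and of 15.1% and 38.3% in replicate 2. Paternal counts exceeded maternal ones in 469 pairs of replicate 1 and 426 of replicate 2, and in 301 pairs of both. Most pairs, 3233, were under 50% in both libraries. The count table lists only genes with more than 30 counts in some library, so pairs with very little paternal RNA are mostly among the 2074 with an unlisted paternal copy. If those copies had between 0 and 30 counts per library, the median share over the 5910 pairs with a listed maternal copy would lie between 14.1% and 25.2% in replicate 1, and between 14.3% and 25.4% in replicate 2.

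**Figure D1:**
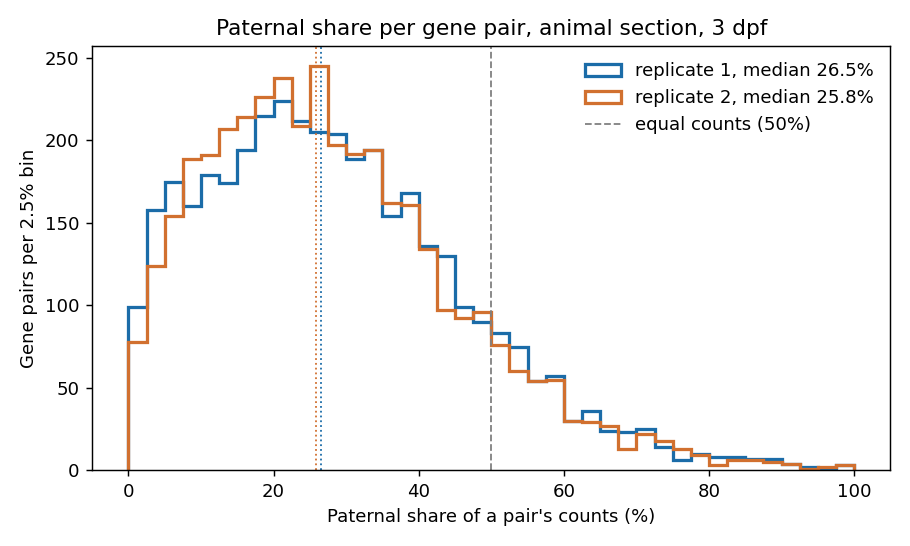
Number of gene pairs (vertical axis, per bin of 2.5 percentage points) by paternal share of the pair's counts (horizontal axis, percent) in the 2 section A libraries of 3 dpf. Both curves peak below 30% and have a thin tail above 50%; dotted lines mark the medians of 26.5% and 25.8%.

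To test each pair, the paternal and maternal counts of a library were compared with edgeR's quasi-likelihood test, with the library as a block and library totals as library sizes. The maternal copy was higher in 2728 pairs (percent called 71.1%) and the paternal copy in 104 (percent called 2.71%) at an adjusted p under 0.05 over all 3836 pairs, and 1004 were not called. The median log2 ratio of paternal to maternal counts was −1.48, a 2.80-fold maternal excess. The difference was at least 2-fold in 2476 of the maternal and 86 of the paternal calls. With the spread taken from all 20 libraries the paternal copy was called higher in 46 pairs and the maternal copy in 1820. The same fit gave 6 paternal and 754 maternal calls without replicate 1, and 5 and 801 without replicate 2, so the numbers of calls in both directions rest on both libraries. When each copy's counts were instead scaled by TMM (trimmed mean of M values) factors, the median log2 ratio moved by 1.47. Relative to that new centre 870 pairs were called paternal and 975 maternal, and the others were not called. The copies' lengths in the father's species were not known, so a ratio is of counts, not of counts per length.

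The ratio of the copies rose between 1 dpf and 3 dpf in section A in 3474 of the 3836 pairs (percent called 90.6%) and fell in 1, dazl. With TMM factors for each copy, which give the change relative to that of the typical pair, it rose in 1250 pairs and fell in 390. Against section B of the same embryos it was higher in 3362 pairs (percent called 87.6%) and lower in 2, dazl and dzip1. The pair dzip1 had 4 and 5 paternal and 0 maternal counts in both section B libraries, so this call rests on very few counts. With TMM factors the ratio was higher than in section B in 1035 pairs and lower in 273. The 361 pairs without a called change from 1 dpf include some with 0 counts of both copies there, such as fshr. For these a change of ratio could not be estimated, so a missing call does not mean that paternal RNA was absent. In section B fshr also had 0 counts of both copies. Of the paternal copies 2823 had over 30 counts in the section A libraries of 3 dpf only, so for these a rise was set by the listing of genes, and the counts are given as a description. In whole sections, a different number of cells and a different amount of RNA per cell cannot be told apart. With the embryo number as a block the ratio against section B was higher in 3216 pairs and lower in 1.

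The strongest paternal excess among well-covered pairs was that of fshr, named after the zebrafish ortholog, the receptor for follicle-stimulating hormone. The father's copy of fshr had 1911 and 1345 counts in the 2 libraries and the mother's copy 32 and 11, a paternal share of 98.4% and 99.2%. Both libraries lay at the paternal extreme (log2 ratio 6.32 ± 0.32 SE, adjusted p = 5.47e-05). The 18 background libraries together held 3 counts on the paternal copy. This pair was also the whole of the follicle cell marker list found in the table, with a summed level of 328 and 271 CPM (a copy's counts relative to the library total) in section A at 3 dpf and 0 at 1 dpf.

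A ligand and a receptor of the Wnt pathway, which directs axis formation and cell movement in fish embryos, were also among the 8 highest pairs. For wnt11f2, a Wnt ligand that guides convergence movements in zebrafish, the paternal copy had 492 and 251 counts and the maternal copy 127 and 35. For fzd5, a Frizzled receptor of Wnt ligands, the father's copy had 1225 and 386 counts and the mother's 137 and 77. Paternal counts were above maternal ones in both libraries of both pairs, and the log2 ratios were 2.36 ± 0.33 (SE) for wnt11f2 and 2.76 ± 0.31 (SE) for fzd5 (adjusted p = 0.000643 and 0.000222). The maternal copies were scarce beforehand, at 2.11 ± 1.11 and 8.50 ± 2.44 CPM over the 8 earlier section A libraries (SD), yet each also rose by 3 dpf (log2 change 3.57 and 1.36, adjusted p = 0.00163 and 0.00666).

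Further paternal-biased pairs coded for proteins of unrelated kinds. For myom1a, a myomesin of the muscle M-band, 1249 and 807 paternal counts stood against 153 and 82 maternal ones. The cell death activator badb had 572 and 244 paternal and 92 and 83 maternal counts. The histone acetyltransferase gene crebbpa had 627 and 619 paternal and 88 and 233 maternal counts, although its maternal copy was well stocked in earlier stages (38.2 ± 18.5 CPM, SD, n = 8). In section A at 1 dpf its paternal row had 27, 33 and 5 counts, beside 135, 114 and 486 maternal ones. Over all 18 background libraries that row took 179 counts, 4.28% of the pair's. The RNA-binding protein gene larp4ab and fam13a completed the 8 highest pairs, with mean paternal shares of 81.7% and 85.7%. The paternal row of fam13a took 7.40% of the pair's counts in the background libraries. In all 8 the paternal copy was higher in both libraries.

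At the other end were pairs in which the mother's copy was abundant and the father's stayed close to the background. For stxbp6l the maternal copy had 1156 and 774 counts and the paternal copy 5 and 0, and for itprid2 the maternal counts were 643 and 394 and the paternal 3 and 0. For cpeb4a, an RNA-binding regulator of translation in eggs, the maternal copy had 416 and 376 counts and the paternal 1 and 4. These paternal shares, at most 1.05%, were no higher than the shares of the same rows in the background libraries, which were 0.484% for stxbp6l, 0.818% for itprid2 and 1.20% for cpeb4a. The change of ratio from 1 dpf was not called for any of the 3 (adjusted p = 0.442, 0.401 and 0.851), so no paternal RNA was detectable there at this depth. The remaining 5 of the 8 lowest, micall2a (LOC110486306), si:ch73-15b2.5, frrs1a, nub1 (LOC110489737) and cidea, had at most 7 paternal counts in a library and shares of at most 1.30%, and their change of ratio was not called either (adjusted p = 0.106 to 0.568). In 4 of these 5, all but si:ch73-15b2.5, the share of 1 library was above that of the background. With so few counts in section A at 3 dpf, all 8 paternal copies were listed only through a background library. A share near that of the background was thus partly set by the listing. Across all pairs 143 had a share under 5% in both libraries, and 108 of these were not called against 1 dpf.

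Among abundant transcripts, some pairs were carried almost equally by both copies. Nucleolin, the main protein of the nucleolus, had 8110 and 3421 paternal against 6409 and 3478 maternal counts in the pair ncl (ncl), a share of 55.9% and 49.6%. In utp20, a factor of small ribosomal subunit assembly, the shares were 49.6% and 45.7%. Cold-inducible RNA-binding protein cirbpb had 50.8% and 48.8%, the telomerase-associated gene tep1 52.8% and 46.4%, dynein heavy chain dync1h1 48.6% and 44.1%, and the histone chaperone setb 44.4% and 48.1%. None of these 6 was called in either direction, although all were called paternal relative to the typical pair, with TMM factors (log2 ratio 1.26 to 1.63), and 324 pairs in all lay within 0.5 log2 units of equality in both libraries. All 6 maternal copies were present before 3 dpf (50.4 to 262 CPM), and those of ncl (ncl), tep1, utp20, cirbpb and setb rose by 3 dpf in edgeR's test (adjusted p = 3.76e-07, 5.55e-05, 0.00022, 6.04e-07 and 0.00344).

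How much of a transcript the egg had held went along with the share. Pairs were divided by the mean CPM of the maternal copy over the 8 section A libraries before 3 dpf, none of which enters the share. In the 130 pairs under 1 CPM the median share was 53.3% and 49.997% in the 2 libraries, and in the 388 pairs from 1 to 10 CPM it was 49.0% and 50.1%. It was 34.4% and 33.1% in the 1085 pairs from 10 to 50 CPM, and 19.4% and 19.1% in the 2233 pairs of 50 CPM and over. The fall from the second class to the third and from there to the highest was larger than the difference between the libraries, while the 2 lowest classes overlapped. Both copies of a pair had to be listed, and in the lowest class most maternal copies were listed only through section A of 3 dpf. Pairs with 1 copy low there are left out, so the listing itself could bring the shares of that class towards 50%. The shares by class are given as a description.

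Among the listed pairs the median level of the paternal copy was 16.4 and 15.2 CPM in the 2 libraries for the lowest class, 13.5 and 12.1 for the second, 13.5 and 13.6 for the third and 17.9 and 19.6 for the highest. A paternal copy counts here only where it was listed, mostly through these same libraries, and the 2074 pairs with an unlisted one (median egg level 33.2 CPM) are left out, so these medians do not show that its level was alike in the classes. The median of the maternal copy was 13.5 and 14.6 CPM in the lowest class, 14.0 and 13.3 in the second, 28.2 and 27.3 in the third and 82.7 and 87.6 in the highest. The calls followed the share. Under 1 CPM 20 pairs were higher for the father and 17 for the mother with 93 not called, and from 1 to 10 CPM 51 and 48 with 289 not called. From 10 to 50 CPM these were 28 and 590 pairs, and at 50 CPM and over 5 and 2073. In the lowest class 122 of the 130 maternal copies had over 30 counts in section A of 3 dpf only, so those pairs were listed only because the copies were read there, and the rise of their maternal copies was set by the listing.

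**Figure D2:**
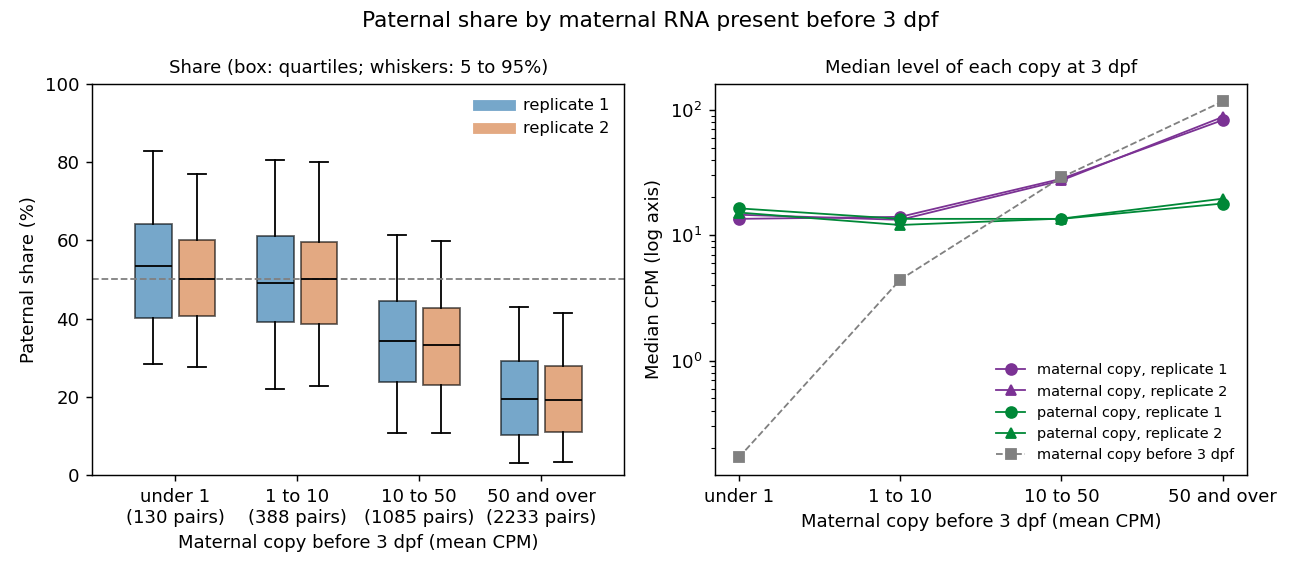
Left, paternal share (percent) of pairs grouped by the mean CPM of the maternal copy before 3 dpf, in each section A library of 3 dpf; right, median CPM (log axis) of each copy at 3 dpf and of the maternal copy before 3 dpf, for the same classes. Median shares fall from 53.3% and 49.997% in the lowest class to 19.4% and 19.1% in the highest, and the median level of the listed paternal copies lies between 12.1 and 19.6 CPM.

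Single pairs of the lowest class departed from its median in both directions, and among its well-covered called pairs the ratio was lowest for slc22a5, a carnitine transporter, and highest for fshr. For slc22a5 the paternal copy had 142 and 201 counts and the maternal copy 755 and 362 (log2 ratio −1.63 ± 0.40 SE, adjusted p = 0.00788), and the maternal copy had 0.0146 CPM before 3 dpf. A pair of genes chosen after their values were seen lay on the paternal side. The keratin gene krt5 had 183 and 127 paternal against 38 and 54 maternal counts (adjusted p = 0.00578), and the chemokine gene cxcl12a had 95 and 53 against 36 and 13 (adjusted p = 0.0116). The mother's copies of krt5 and cxcl12a had 0 and 0.0432 CPM before 3 dpf.

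Transcription factors and early targets of genome activation gave 40 pairs with a median share of 39.6%, against 26.4% over all pairs. The paternal copy was higher in 4 of them (percent called over all pairs 2.71%), the maternal copy in 16, and 20 were not called. The list's median egg level was low, 4.44 CPM against 64.7 CPM over all pairs. All pairs from 1 to 10 CPM had a median share of 49.3%. However, the list's own pairs ran from 0 CPM (noto) to 419 CPM (pou5f3 (pou5f3)), so that class does not match them. Whether the list lay above pairs with similar egg RNA was not tested. The zebrafish ventralizing repressor gene vox had 309 and 274 paternal and 190 and 220 maternal counts, and her5, a neural repressor of the Hairy family, had 530 and 697 against 404 and 561. In the pair HMGA1 (LOC110532429), for an architectural chromatin protein, the counts were 792 and 605 against 538 and 444. In these 3 pairs the paternal copy was ahead in both libraries without passing the test (adjusted p = 0.123, 0.175 and 0.0642). The other HMGA1 pair, HMGA1 (LOC110492179), had 713 and 375 paternal against 1122 and 744 maternal counts. That pair was called maternal (adjusted p = 0.00892), while relative to the typical pair, with TMM factors, it was called paternal (log2 ratio 0.65, adjusted p = 0.0348). The oncogene mycn had shares of 38.0% and 51.2% and gata6 (LOC110530508), an endoderm factor, 48.5% and 64.1%, on opposite sides of equality in the 2 embryos. The related repressor vent had 224 and 353 paternal against 395 and 498 maternal counts and was called maternal (adjusted p = 0.0453), while relative to the typical pair, with TMM factors, it was called paternal (log2 ratio 0.82, adjusted p = 0.0298).

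The activators of the zygotic genome themselves, as known from zebrafish, leaned to the mother. For nanog the paternal copy had 1791 and 741 counts and the maternal copy 5534 and 1450, shares of 24.5% and 33.8% (log2 ratio −1.30 ± 0.19 SE, adjusted p = 0.0007). The egg had held little of it, 13.9 ± 6.81 CPM (SD, n = 8), and the maternal copy reached 612 ± 456 CPM at 3 dpf (SD, n = 2), a rise that was called (log2 change 5.72, adjusted p = 2.59e-06). Most of the maternal nanog level was thus not there before 3 dpf, and the share was under 50% in both libraries. The pair pou5f3 (pou5f3) was stocked in the egg at 419 ± 74.9 CPM, and its paternal copy had 1282 and 728 counts against 2293 and 1950. Its second pair, pou5f3 (LOC110523509), had 141 and 212 against 1328 and 526. Relative to the typical pair, with TMM factors, the log2 ratio was 0.17 for nanog and 0.34 for pou5f3 (pou5f3), with no call (adjusted p = 0.524 and 0.186). Both paternal rows of pou5f3 were close to empty before, with 3 and 2 counts over the 18 background libraries.

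Other members of the factor list that were chosen after their values were seen complete the range. The zebrafish activator gene sox19b had 133 and 110 paternal against 1047 and 1275 maternal counts, after 244.9 CPM in earlier libraries. The endoderm factor sox17 had 90 and 170 paternal against 40 and 67 maternal counts (adjusted p = 0.0132), and klf2a, a Krüppel-like factor, 300 and 385 against 120 and 158 (adjusted p = 0.00334). The notochord factor noto, with 0 counts in the background, had 121 and 109 against 131 and 149 (adjusted p = 0.421). At the low end mycb, a Myc gene, had 19 and 28 paternal against 625 and 892 maternal counts. The share of mycb, 2.95% and 3.04%, was above its 1.12% in the background, and the change of ratio from 1 dpf was called (adjusted p = 0.0378). In edgeR's test of levels its paternal copy had no called change from 1 dpf (log2 change 0.54, adjusted p = 0.488). The maternal copy of mycb fell (log2 change −0.88, adjusted p = 0.0019). Against section B the ratio of mycb was not called (adjusted p = 0.0733).

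**Figure D3:**
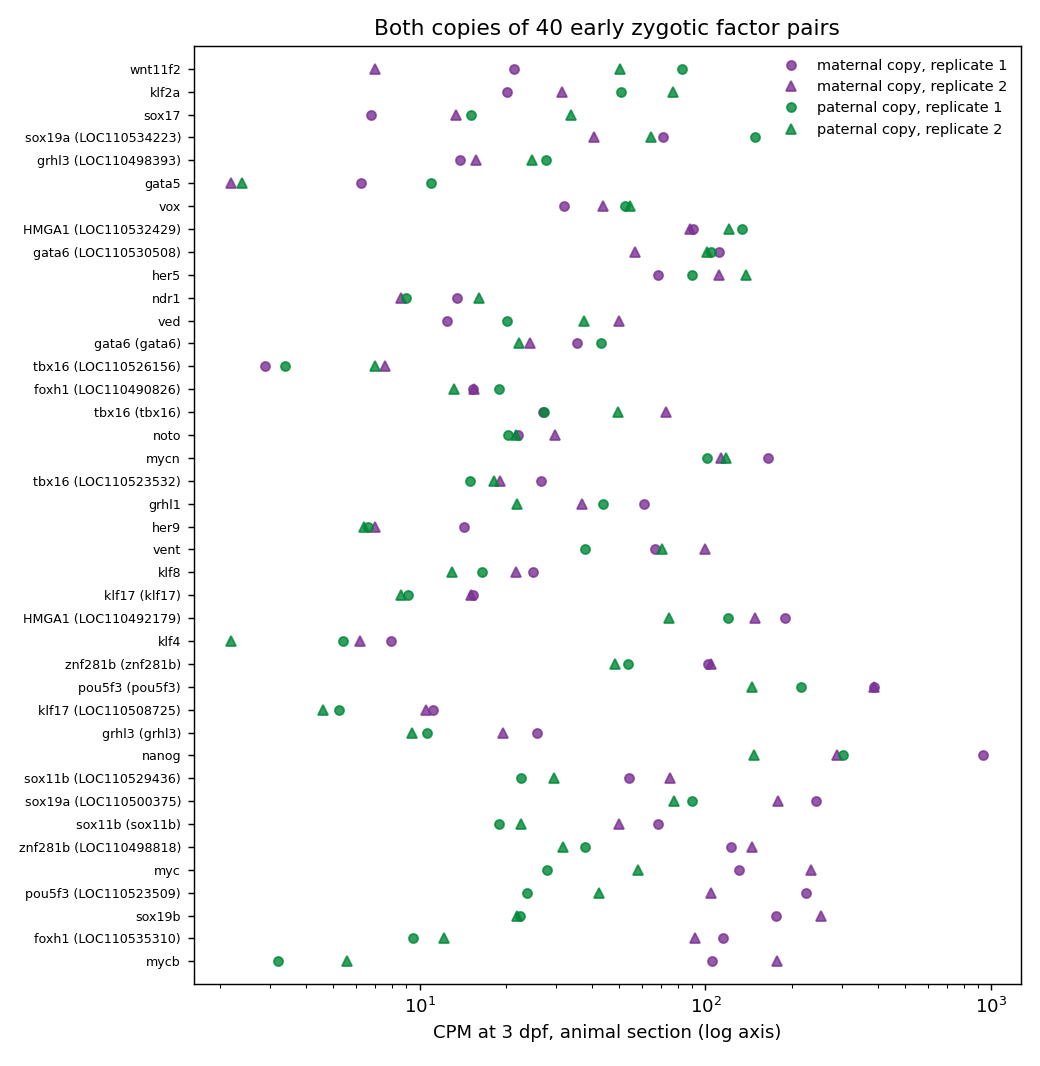
Level of the maternal (purple) and paternal (green) copy in CPM (log axis) for 40 pairs of early zygotic factors in section A at 3 dpf, ordered by log2 ratio; circles are replicate 1 and triangles replicate 2. The paternal symbols lie to the right at wnt11f2 and klf2a, overlap the maternal ones in the middle of the order, and lie to the left from znf281b down to mycb.

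Cytosolic ribosomal protein genes had the highest median share of the 25 lists with at least 5 pairs. Over their 10 pairs it was 56.1%, with 1 called paternal, rpl7l1, 1 called maternal, rpsa, and 8 not called (percent called over all pairs 2.71% paternal and 71.1% maternal). The count of the father's copy of rpl12 was 1094 and 814 against 849 and 716, that of rps20 776 and 515 against 753 and 465, and that of rpl7l1, a ribosomal protein-like factor, 596 and 323 against 403 and 187. In each of these 3 pairs both libraries had more paternal than maternal counts. The laminin-binding ribosomal protein gene rpsa was the exception, with 47 and 22 paternal against 223 and 122 maternal counts. The maternal copy rose by 3 dpf in 7 of the 10 pairs and fell in 0 (percent called over all pairs 24.3% for a rise and 26.1% for a fall). Over all maternal species genes the percent called was 11.7% for a rise and 23.2% for a fall. Most pairs had little egg RNA, a median of 6.69 CPM. Among all 388 pairs from 1 to 10 CPM the maternal copy rose in 268 and fell in 4. In that class 289 pairs were not called and the median share was 49.3%, so these traits of the list were not particular to it.

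Nucleolar factors that build ribosomes numbered 50 pairs with a median share of 39.2%, of which 1 was higher for the father, mak16, 25 for the mother (percent called over all pairs 71.1%), and 24 were not called. For mak16, a factor of large subunit assembly, 325 and 198 paternal counts stood against 215 and 109 (adjusted p = 0.0466). Their maternal copies rose in 31 of 50 pairs and fell in 1, where 24.3% and 26.1% of all pairs did. Translation factors (29 pairs) had a median of 32.5%, with 0 called paternal and 19 maternal at an adjusted p under 0.05. Within them eif4g1a (LOC110504100), a scaffold of the cap-binding complex, had 54.6% and 52.7%, and eif4enif1 (eif4enif1), a binding partner of the cap-binding protein, 20.01% and 19.5%. Splicing factors (63 pairs) stood at 29.8% with 0 and 50 calls, RNA polymerase and general transcription factors (45 pairs) at 32.2% with 2 and 28, and chromatin regulators (109 pairs) at 27.5% with 1 and 85. The maternal calls of these last 4 lists were near the background share over all pairs. Relative to the typical pair, with TMM factors, the median log2 ratio turned positive for the ribosome assembly (0.84), translation factor (0.39), splicing (0.24), polymerase (0.39), chromatin (0.08) and zygotic factor (0.84) lists.

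In the nuclear and metabolic lists the spread inside a list was wide. The histone methyltransferase gene kmt2a (kmt2a), stocked at 1247 CPM in the egg, had 530 and 1002 paternal against 5366 and 7134 maternal counts. Positive elongation factor subunit ccnt2a had 374 and 371 against 335 and 265, with no call (adjusted p = 0.269). Mediator subunits lay lower, med1 at 15.6% and 17.97% and med24 at 5.94% and 2.60%. In the energy lists the pyruvate dehydrogenase subunit dlat had 202 and 295 against 145 and 188, while the respiratory chain subunit uqcrfs1 had 30 and 34 against 805 and 624. The first was ahead for the father in both libraries without a call (adjusted p = 0.0954), and the second was called maternal (adjusted p = 6.26e-05).

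**Figure D4:**
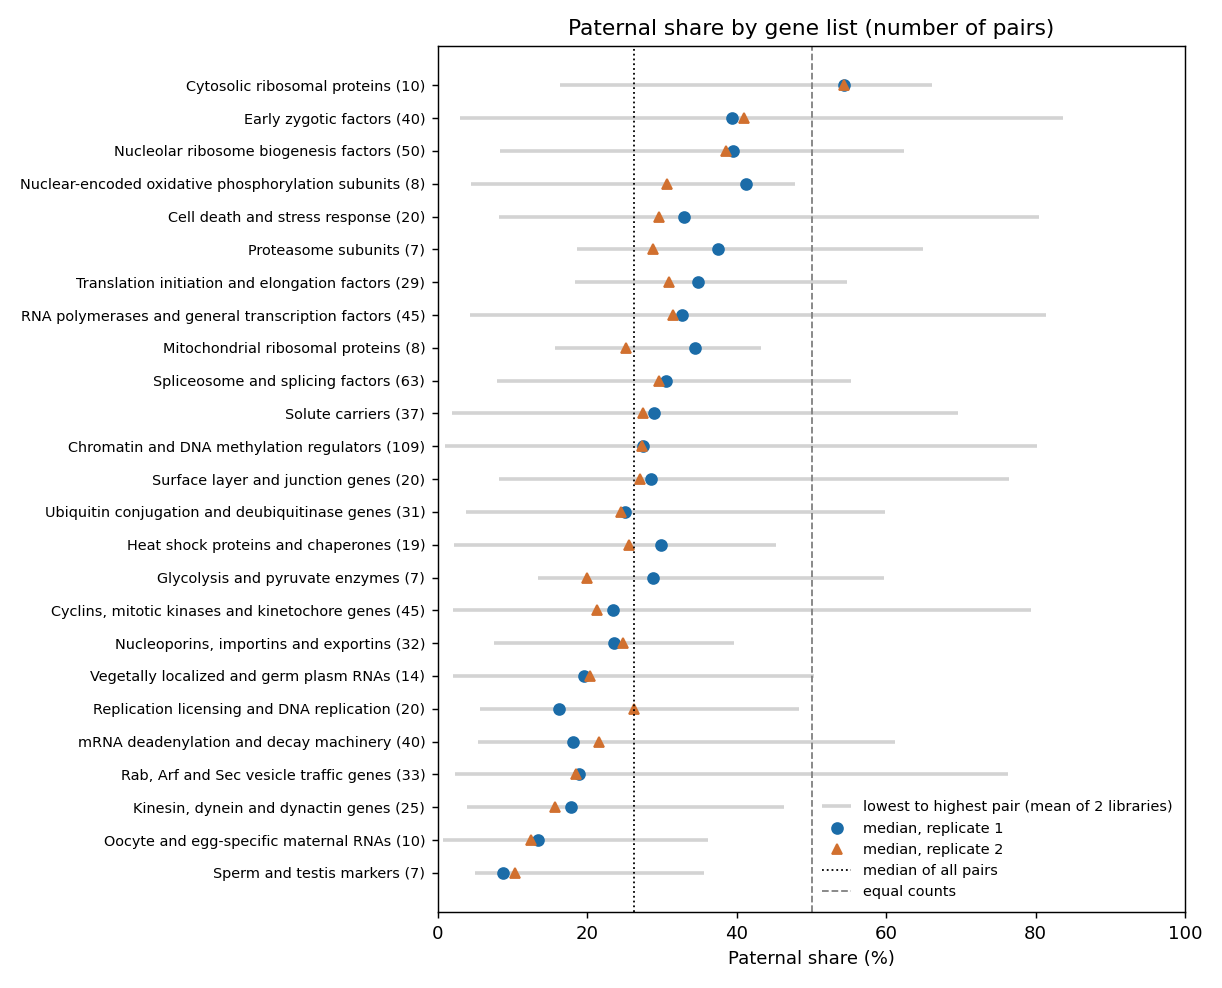
Median paternal share (percent) of the 25 gene lists with at least 5 pairs in replicate 1 (circles) and replicate 2 (triangles), with grey bars from the lowest to the highest pair and the number of pairs in parentheses. Cytosolic ribosomal proteins lie above equality in both libraries, and oocyte and sperm lists lie lowest, while the grey bars of most lists cover more than 30 percentage points.

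Several lists had a median share below the 26.4% of all pairs. Oocyte and egg-specific RNAs (10 pairs) had a median share of 14.6% with 10 of 10 called maternal (percent called over all pairs 71.1%), and a median egg level of 181 CPM. Among all 2233 pairs of 50 CPM and over, 92.8% were called maternal and the median share was 19.3%. The kinase gene wee2, which keeps oocytes in meiotic arrest in mammals, had 24 and 33 paternal against 950 and 730 maternal counts. Its share of 2.46% and 4.33% stood beside 2.702% in the background, and its ratio change was not called (adjusted p = 0.249). Motor proteins (25 pairs) had 16.0% with 0 paternal and 22 maternal calls, vesicle traffic genes (33 pairs) 18.1% with 1 and 25, and mRNA decay factors (40 pairs) 20.05% with 0 and 33. Sperm and testis markers (7 pairs) had 8.94%, with 0 paternal and 6 maternal calls, and all 37 listed genes of that list together had 796 and 1249 CPM in section A at 3 dpf against 1054 to 1598 at 1 dpf; their part in the result was not tested. Surface layer and junction pairs (20) had 25.9%, with 2 and 13 calls. Blood and liver lists had 1 listed gene each and no pair.

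Cell division pairs covered the whole scale. Cyclins, mitotic kinases and kinetochore genes (45 pairs) had a median of 24.9% with 2 paternal and 36 maternal calls, the latter near the 71.1% called maternal over all pairs. Of the cyclin B genes, ccnb2 had 297 and 145 paternal against 393 and 349 maternal counts and ccnb1 (LOC110523559) 976 and 254 against 2205 and 973; both were called maternal (adjusted p = 0.038 and 0.000847). The cohesin subunit smc3 was called paternal with 517 and 326 against 86 and 120 counts. However, its paternal row took 24.8% of the pair's counts in the background libraries, 1 of 240 pairs over 5%, and the rise from 1 dpf was called (adjusted p = 0.000105). A similar case was rab40c, called paternal with 69.0% and 83.4% against 15.05% in the background. In replication licensing (20 pairs, median 20.9%) cdt1, which helps to load the replicative helicase, had 19.6% and 24.7% against a background of 19.3%, and its change of ratio was not called (adjusted p = 0.0899). Both copies of cdt1 had risen from 1 dpf, the maternal one by 6.48 and the paternal one by 8.33 on the log2 scale (adjusted p = 7.66e-07 and 9.43e-07). The paternal copy had 284 and 189 counts, against 62 in all 18 background libraries together.

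Germ plasm and vegetal RNAs (14 pairs) had a median share of 21.3%, with 0 paternal and 11 maternal calls, near the 71.1% called maternal over all pairs. The germ cell RNA-binding gene dazl was the pair whose ratio fell from 1 dpf (log2 change −1.97, adjusted p = 0.0209). It had 1 and 5 paternal against 145 and 142 maternal counts, a lower share than the 5.98% of its background libraries. The paternal copy of dazl was listed only through background libraries, so the fall of its ratio could partly come from the listing. This fall was not seen in every subset: over the leave-one-out fits the number of pairs that fell ran from 0 (without 1 dpf replicate 3) to 2. The germ cell helicase ddx4 had 43 and 31 against 677 and 517, with no called change (adjusted p = 0.163), whereas both pairs of trim36, a ubiquitin ligase needed for axis formation in frog, had a called rise. Their shares were 5.97% and 12.7% for trim36 (LOC110525254) and 19.2% and 28.2% for trim36 (LOC110535019).

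Salmonid genomes keep many duplicates of an ancestral genome doubling, so 668 zebrafish genes were represented by 2 pairs each. The shares of such 2 pairs differed by a median of 9.52 percentage points, by under 10 points for 339 genes and by over 20 points for 140. Their correlation was 0.392. The same pair differed by a median of 4.59 points between the 2 libraries, taken over all pairs. The difference between unrelated pairs was not computed. For bag6l, a chaperone regulator, one pair (LOC110496455) had 35 and 42 paternal against 1699 and 1812 maternal counts and the other (LOC110488113) 204 and 175 against 264 and 199. The pair of bag6l (LOC110496455) had held 501 CPM before 3 dpf and that of bag6l (LOC110488113) 42.0 CPM. Likewise sox19a (LOC110534223), with 0.593 CPM of egg RNA, had shares of 67.6% and 61.2%, and sox19a (LOC110500375), with 255 CPM, 27.0% and 30.2%. In both genes the pair with the less stored copy had the higher paternal share. For hnrnpa0b the order was the same with a smaller gap in egg RNA, 46.6% and 50.1% for hnrnpa0b (LOC110504781) at 61.5 CPM and 25.7% and 23.7% for hnrnpa0b (LOC110488571) at 97.2 CPM. Nucleolin went the other way, since ncl (ncl) was the more stored pair at 262 CPM and ncl (LOC110508971), at 159 CPM, had only 19.95% and 13.1%. How reads were divided among such near-identical genes is not stated, so the values of duplicates are uncertain.

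Maternal copies did not all fall while paternal ones appeared. In the fit over all 32502 genes tested, 933 of the 3836 maternal copies (24.3%) rose from 1 dpf to 3 dpf in section A and 1003 (26.1%) fell, where 11.7% and 23.2% of all maternal species genes did. With scaling factors from the maternal species genes alone, which moved the median change of those genes from −0.33 to −0.01, 1326 rose and 605 fell. The median share was 38.5% in the pairs whose maternal copy rose, 25.7% in those not called and 16.8% in those that fell. These groups also differed in the median level of the maternal copy before 3 dpf, 15.9, 64.3 and 117 CPM in the same order. Whether the share went along with a rise or fall apart from that level was not tested. Single pairs could lie far from these medians. The splicing factor pair hnrnpa0b (LOC110488571), whose maternal copy rose (log2 change 2.62, adjusted p = 1.03e-06), had a mean share of 24.7%. For cpeb4a, whose maternal copy fell (log2 change −1.47, adjusted p = 1.16e-06), it was 0.646%. Both lay below the lower quartiles of their groups, 29.1% and 9.28%. The 2074 pairs without a listed paternal copy differed in the rises and falls of the maternal copy, with 114 rises (5.51%) and 1010 falls (48.8%) among 2070 tested. Of the 3836 pairs, 2823 paternal copies and 169 maternal copies had over 30 counts in section A of 3 dpf only. The pairs were thus partly selected by the libraries tested. The contrasts with all maternal species genes and with the 2074 pairs are therefore descriptions.

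The 2 embryos resembled each other in the share of most pairs and differed sharply in a few. Between replicates 773 pairs (20.2%) differed by over 10 points, and across the 3836 pairs the shares had a correlation of 0.844, as a description of 2 libraries. For 12 pairs, chosen after their values were seen as those with 100 or more counts in a library and an 8-fold or larger difference in CPM, the paternal copy was far higher in 1 embryo than in the other. The centralspindlin component racgap1 (LOC110493977) had 4649 and 60 paternal counts and 1556 and 1233 maternal ones. For rev3l (LOC110529197), the catalytic subunit of a translesion polymerase, the paternal counts were 37 and 8494 and the maternal ones 499 and 520. The kinase gene plk2b had 2302 and 6 paternal and 93 and 174 maternal counts. In all 12 pairs the maternal copies of the 2 libraries were within 3.31-fold of each other.

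The difference went both ways, with 5 pairs higher in replicate 1 and 7 in replicate 2. Further such pairs were fam110b, with 1416 and 3 paternal counts, and gys2, the liver glycogen synthase gene, with 1 and 490. The potassium channel gene kcnh5b had 5 and 297 paternal and 26 and 26 maternal counts. The same rule found 1 maternal copy among the 3362 with 100 counts, against 12 paternal copies among 1987, and over all listed genes 97 of 4052 paternal and 53 of 10773 maternal ones. None of the 12 pairs was called in the copy comparison, where the spread between the libraries is wide (log2 ratio 0.37 ± 2.48 SE for rev3l). The labels do not say whether the embryos shared a father.

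**Figure D5:**
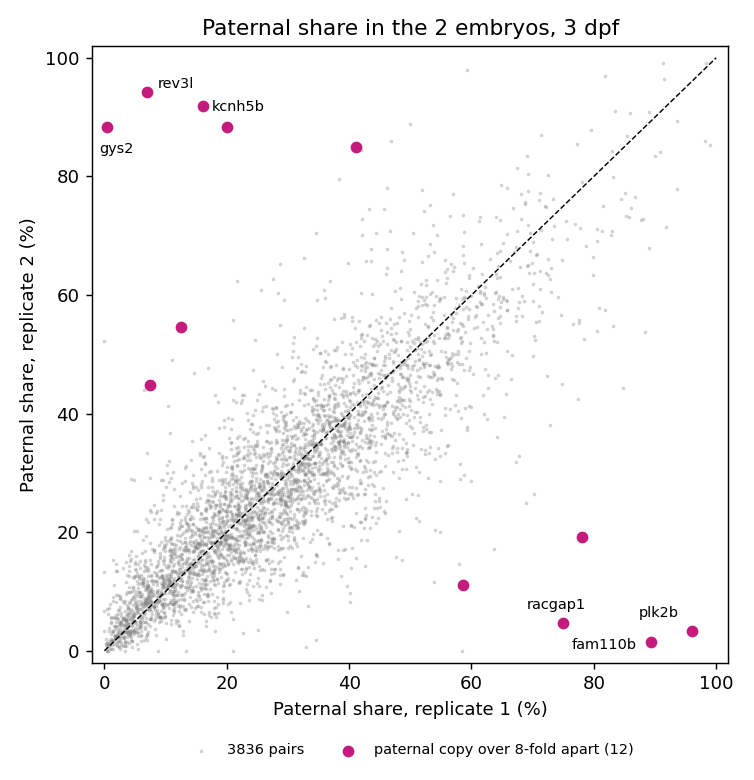
Paternal share (percent) of 3836 pairs in replicate 1 (horizontal axis) and replicate 2 (vertical axis) of section A at 3 dpf; magenta points are the 12 pairs whose paternal copy differed 8-fold or more between the libraries, and the dashed line marks equal shares. Most pairs lie along the line (correlation 0.844). The magenta pairs lie off it at varying distances, 5 towards replicate 1 and 7 towards replicate 2.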

How the data were processed

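RNA of hybrid trout egg and embryo sections was sequenced from ribosomal RNA-depleted, directional libraries, per the labels' protocols. The authors deposited raw counts per gene of both species and an ortholog table. The tools listed in the submitters' processing notes are HTSeq 2.0.4, STAR 2.7.11, fastp 0.23.4 and, without a version, DESeq2. The genome builds, the strand setting, and the treatment of reads that match both species or several duplicates are not given in the sources used here, so paternal reads counted on maternal genes could not be measured. The labels give 24 libraries, and the 20 in the count table (5011274 to 9986001 counts) were used. CPM are per library total.

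Symbols came from the O. mykiss gene or the deposited zebrafish ortholog and were found for 3699 of 3836 pairs; those shared by several pairs carry the maternal identifier. Copies were compared with edgeR 4.0.16 (R 4.3.3; quasi-likelihood test, Benjamini-Hochberg adjustment, threshold 0.05) on 2 columns per library with the library as a block, and the change of ratio in 1 fit of all 20 libraries. Levels were tested with TMM factors and edgeR's expression filter over all genes. With 2 embryos, p-values measure the spread between these samples, with 1 residual degree of freedom per pair and the rest borrowed across pairs. The test was checked on simulated data for the copy comparison over 3836 pairs, where 64% of pairs changed 2-fold and 99% of those changed 4-fold were recovered, with 14 false calls among 177. These simulated pairs had less spread than the real fit (common dispersion 0.0587) and mostly equal copies, so the rates can overstate recovery. Of 2-fold changes, 39% were recovered for the ratio against 1 dpf, 20% against section B and 35% for levels. For the ratios the simulation gave paternal copies far more counts at 1 dpf and in section B than the real background. Only well-covered pairs or genes were changed, so these rates do not describe the real comparisons. Sections A and B of 3 dpf with the same number come from the same embryo by the design text, and their deviations from the group means had a correlation of 0.490 over 14442 genes. Between section A of 3 dpf and of 1 dpf, which share no embryos, it was −0.219. The value of 0.490 thus does not by itself show the pairing.

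Pairs named in the text were those with a symbol and at least the median summed counts that were among the 8 highest and 8 lowest called ratios, the 6 most counted within 0.5 log2 units of equality in both libraries, the 6 most counted with under 1 CPM of egg RNA and that class's extremes, the most counted and the extreme pairs of each list of at least 5 pairs, and 21 genes fixed by name, of which 10 had pairs; 2 of the pairs so chosen are not reported here. The pairs and lists were chosen with earlier results of these data known. Alternatives were other count minimums, scalings, fits, DESeq2 1.42.0 and leaving out libraries.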

Additional observations from a re-analysis of the deposited data

How the results depend on the processing

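With DESeq2 size factors per copy 919 pairs were called higher for the father and 1002 for the mother, close to the 870 and 975 called with TMM factors. Both scalings centre the typical pair at equality. The all-library fit called 46 paternal and 1820 maternal pairs, and leaving out 1 library in that fit left 5 to 6 paternal and 754 to 801 maternal calls, with 1 sample per copy and the spread borrowed from other stages. DESeq2's test with the library as a block called 80 and 2571, and edgeR with no replicate block 84 and 2550. Without the 12 embryo-specific pairs and the 1 with such a maternal copy, an alternative chosen after seeing the data, the calls were 104 and 2727. No new fit was made for this alternative and none of the 12 had been called, so it does not test the calls. With TMM factors the ratio rose from 1 dpf in 1250 pairs and fell in 390, and against section B it was higher in 1035 and lower in 273. Without pairs of over 5% background share 0 fell in either comparison, which was set by the filter itself. It leaves out dazl (background share 5.98%) and dzip1 (32.7%), the only pairs that had fallen. In the fits without 1 library of section A at 1 dpf, 0 to 2 fell against 1 dpf. With the replicate block 1 fell against section B. Maternal copies that fell numbered 605 with maternal species factors and 638 with DESeq2 size factors. The median share was 25.6% at 200 or more counts. List medians that turned positive under TMM factors were mitochondrial ribosomal proteins 0.30, translation factors 0.39, ribosome assembly 0.84, respiratory chain 0.70, proteasome 0.54, splicing 0.24, polymerases 0.39, chromatin 0.076, solute carriers 0.16, zygotic factors 0.84 and cell death and stress genes 0.54. Under the alternatives other than scaling, 961 values for 97 named pairs, 851 kept direction and call, 107 lost the call, 3 gained it and 0 reversed. Under TMM factors, and likewise under DESeq2 size factors, 51 of the 97 kept direction and call, 11 lost the call, 12 gained it and 23 turned from the maternal to the paternal side of the typical pair, of which HMGA1 (LOC110492179), eif4a1a, huwe1 (LOC110531242), pom121 (LOC110537576) and vent, and with DESeq2 factors also tnksa (LOC110525835), were called both before and after. The log2 ratios of the 23 with TMM and with DESeq2 factors were top2a 0.029 and 0.043, nanog 0.17 and 0.19, nup98 (LOC110537426) 0.30 and 0.31, pou5f3 (pou5f3) 0.34 and 0.36, slc39a10 0.54 and 0.56, eif4a1a 0.58 and 0.60, ccnb2 0.65 and 0.66, HMGA1 (LOC110492179) 0.65 and 0.67, tnksa (LOC110525835) 0.69 and 0.71, huwe1 (LOC110531242) 0.73 and 0.74, vent 0.82 and 0.83, pom121 (LOC110537576) 0.87 and 0.88, itga5 (itga5) 1.08 and 1.09, mycn 1.15 and 1.17, bag6l (LOC110488113) 1.19 and 1.21, setb 1.26 and 1.27, dync1h1 1.26 and 1.28, usp42 (LOC110499199) 1.27 and 1.28, tnksa (LOC110536219) 1.33 and 1.35, utp20 1.34 and 1.35, hnrnpa0b (LOC110504781) 1.37 and 1.39, tep1 1.45 and 1.47 and cirbpb 1.46 and 1.48. Minimums of 10 and of 1 count changed nothing, since every pair had at least 66. Depth limits pairs with few paternal counts, and 390 had 0 of them in the background.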
